A study of Mus musculus with 12 samples.

Results

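Aminoacyl-tRNA synthetases attach each amino acid to its transfer RNA, the step that fixes which residue a codon adds to a growing protein. Cells carry a cytosolic set that serves messages of nuclear genes and a separate mitochondrial set, also encoded in the nucleus, that serves translation inside the organelle. Several cytosolic enzymes sit together in the multisynthetase complex, many are targets of ATF4, the transcription factor of the amino acid response, and the tryptophan enzyme Wars is a known interferon gamma-induced gene. The 37 mouse synthetase genes described here were taken by name from 19549 features of the count files, as a gene alone or as 1 part of a joined feature name. Of these, 33 stood alone and 4 were joined with a neighbour, namely Farsb with Sgpp2, Iars2 with Rab3gap2, Mars with Ddit3, and Yars with C77080. The values of a joined feature cannot be divided between its genes. The list held 21 cytosolic and 16 mitochondrial genes. All 37 passed the filter on low counts, Tarsl2 through the polysome libraries alone. Its difference between the fractions was therefore built in, and counts between the fractions leave it out unless they name it. Lars2, the mitochondrial leucine enzyme, took a large share of the polysome counts and is described apart from the other 36.

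Bone marrow-derived macrophages of naïve female FVB mice were treated for 4 h with IFNG (interferon gamma, 200 units/mL) or IL4 (interleukin 4, 40 ng/mL). Total mRNA came from about 10% of the cells of a preparation, and the lysate of the rest was fractionated on a sucrose gradient to collect polysome-associated mRNA, here messages carrying more than 3 ribosomes. The 4 groups of 3 libraries were IFNG polysome, IL4 polysome, IFNG total and IL4 total. No untreated cells were among them, so every polarization difference is IFNG relative to IL4, and the age of the mice is not in the labels.

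The polysome libraries were shallower than the total libraries. Total counts ran between 3189688 and 8789480 in the IFNG polysome group, 2563955 and 5546605 in the IL4 polysome group, 10443200 and 22014162 in the IFNG total group, and 12348819 and 16603339 in the IL4 total group. Levels below are CPM, counts scaled per library with the TMM method of edgeR, and 3 counts were worth 0.184 to 1.13 CPM. The 7 macrophage markers, among them Csf1r and Lyz2, summed to 7288 to 20244 CPM in the 12 libraries. Among markers of other blood cells Flt3, Ms4a1, Cd3e, Cd3g and Ncr1 were at 0 in all of them. Other markers of the same lists were detected, with the sums given below. Summed neutrophil markers (7 genes, 3 tested, 1 higher in IFNG total mRNA) reached 10.1 to 33.5 CPM in IFNG total libraries against 1.08 to 4.54 CPM in IL4 total libraries. In polysome libraries they were 3.57 to 8.13 CPM with IFNG against 0.545 to 4.16 CPM with IL4. Summed dendritic cell markers (5 genes) were 17.2 to 44.1 CPM in IFNG polysome libraries against 0.681 to 1.42 CPM in IL4 polysome libraries. In total libraries they were 8.43 to 26.9 CPM with IFNG against 0.552 to 1.23 CPM with IL4. Of these genes Xcr1 and Clec9a were tested and called higher with IFNG in both fractions. Both passed the low count filter through IFNG libraries, so that a difference was built in. The part of neutrophil and dendritic cell markers in the synthetase values was not tested. Summed T and NK cell markers stayed at or under 0.369 CPM, B cell markers at or under 6.21 CPM and stromal markers at or under 40.8 CPM. In bulk samples such as these, fewer cells of a type and less RNA per cell cannot be told apart.

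Promoters are shown because 13 cytosolic members are listed as ATF4-linked and ATF4 itself differed between the polarizations on polysomes. RefSeq windows (GRCm38.p6), running 250 bases before to 50 bases after a transcription start, matched 28 members with 29 windows. There was no window in the table for Cars, Hars, Hars2, Lars, Nars, Pars2, Rars, Vars and Wars. The C/EBP-ATF response element TGATGNAA, searched on both strands, was found in 5 of the 29 windows (17.2%), against 3.97% of all 32851 windows of that length. The 5 genes were Aars, Gars, Iars, Tars and Yars, and all 5 are on the ATF4-linked list. A stretch around 1 match of each gene is printed 5′ to 3′ on the strand of the gene, with the element in capitals. Every match printed but that of Yars reads as the reverse complement of the letters searched.
Aars, chr8:111033840-111033869, plus strand: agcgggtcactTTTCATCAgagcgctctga
Gars, chr6:55037960-55037989, plus strand: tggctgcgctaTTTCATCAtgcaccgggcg
Iars, chr13:49682126-49682155, plus strand: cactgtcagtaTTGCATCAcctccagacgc
Tars, chr15:11399655-11399684, minus strand: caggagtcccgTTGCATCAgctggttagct
Yars, chr4:129189895-129189924, plus strand: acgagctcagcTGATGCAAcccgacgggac
Iars and Tars share the 8 letters TTGCATCA, and Yars carries their reverse complement. The interferon gamma-activated site, as TTCNNNGAA on both strands, was found in 3 of 29 windows (10.3%, in Aars, Kars and Nars2) against 8.30% of all windows. The interferon-stimulated response element, a 10-letter consensus searched on both strands, was found in 1 of 29 (3.45%, in Qars) against 3.44% of all windows. A match describes letters in a window and shows no binding.

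Wars was the 1 synthetase gene of 36 that rose with IFNG in total mRNA, and the gene for the tryptophan enzyme of the cytosol rose on polysomes as well (the plot of Wars and the phenylalanine enzyme subunits shows each library). The comparison of IFNG with IL4 shows how the message level of each synthetase, and the part of it loaded with ribosomes, differed between the polarizations. Wars lies on chromosome 12 (108860030 to 108894175 of GRCm38). In polysome-associated mRNA it had 192, 123 and 206 CPM with IFNG against 39.6, 33.3 and 32.9 CPM with IL4. In total mRNA it had 312, 237 and 187 CPM with IFNG against 55.6, 43.7 and 53.8 CPM with IL4. Every IFNG library was above every IL4 library of its fraction, and the lowest IFNG value stood above 100 CPM in both fractions while no IL4 value reached 60 CPM. The means were 174 ± 44.7 CPM in IFNG polysome libraries and 35.3 ± 3.79 CPM in IL4 polysome libraries, and 246 ± 62.9 CPM in IFNG total libraries and 51.0 ± 6.41 CPM in IL4 total libraries (SD, n = 3 each). The difference was 4.91-fold on polysomes (log2 2.30, SE 0.40, edgeR adjusted p = 0.000352) and 4.81-fold in total mRNA (log2 2.27, SE 0.40, edgeR adjusted p = 0.000354). Over all features tested, 7.54% were called higher with IFNG on polysomes and 7.08% in total mRNA.

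The polysome association of Wars, the polysome difference minus the total difference, was 0.03 on the log2 scale (SE 0.54, edgeR adjusted p = 1.00). Its sign turned when single libraries were left out, between -0.05 and 0.38, so no direction can be given. Polysome against total, averaged over the polarizations, gave log2 -0.51 for Wars (SE 0.27, edgeR adjusted p = 0.12).

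**Figure D1:**
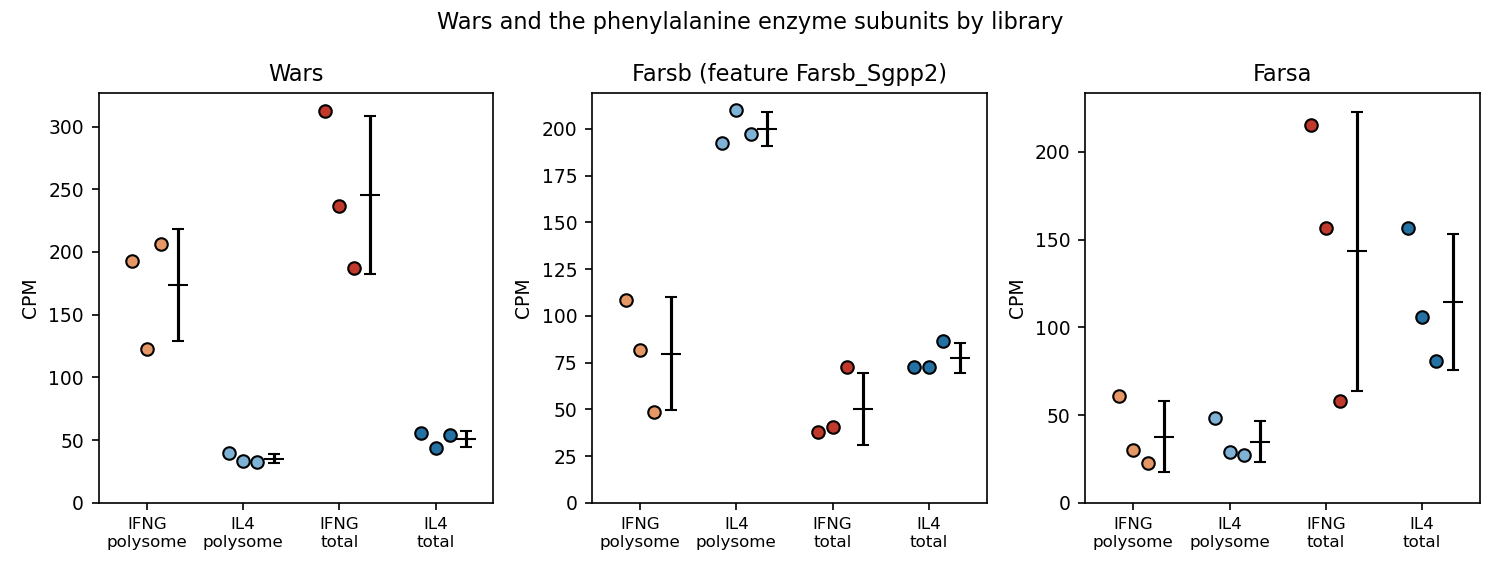
CPM (vertical axis, linear, from 0) of Wars, Farsb and Farsa in each library of the IFNG polysome, IL4 polysome, IFNG total and IL4 total groups (horizontal axis). Points are libraries in replicate order and bars are mean ± SD of 3; Wars is above 100 CPM in all 6 IFNG libraries and under 60 CPM in all 6 IL4 libraries, Farsb is at 192 CPM or above in IL4 polysome libraries alone, and Farsa is lower in most polysome than total libraries.

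No synthetase was called lower with IFNG in total mRNA, where 3.93% of all features were. The median log2 fold change of the 36 was -0.18 there, against 0.04 over all features, and 29 of the 36 values were negative. With single libraries left out that median ran between -0.33, without IFNG total replicate 3, and 0.01, without IL4 total replicate 3. The median of all features was then -0.07 and 0.06. Only 3 members had every IFNG total library under every IL4 total library (8.33%, against 12.3% of all features), namely Mars2, Farsb and Vars2. At an unadjusted p under 0.05, 3 of the 36 passed in total mRNA, Wars included, against 2236 of 10421 features. DESeq2 likewise called 0 members lower.

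Mars2, the mitochondrial methionine enzyme, and Cars2, the mitochondrial cysteine enzyme, had the widest total mRNA differences after Wars among members averaging at least 10 CPM. Mars2 was at 8.62, 7.21 and 3.54 CPM in IFNG total libraries against 21.5, 10.4 and 12.2 CPM in IL4 total libraries. The groups did not overlap, yet the log2 fold change of -1.18 (SE 0.47) did not pass (edgeR adjusted p = 0.125). Cars2 was at 14.8, 7.33 and 4.75 CPM in IFNG total libraries against 24.5, 20.5 and 13.7 CPM in IL4 total libraries, and IFNG replicate 1 lay inside the IL4 range. Cars2 was lower with IFNG in each of the 3 same-numbered pairs, which was not tested. Its log2 fold change was -1.12 (SE 0.47, edgeR adjusted p = 0.152). Without IFNG total replicate 1 it was -1.75 and passed (edgeR adjusted p = 0.0317); over all alternatives the adjusted p ran between 0.0317 and 0.411.

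On polysomes Farsb, the beta subunit of the cytosolic phenylalanine enzyme, fell with IFNG, the 1 synthetase of 36 called lower there (2.78%, against 6.58% of all features). The median log2 fold change of the 36 was -0.65, against -0.06 over all features, and 30 of 36 were negative. In 8 members (22.2%, against 16.0% of all features) every IFNG polysome library was under every IL4 polysome library. These were Nars2, Farsb, Dars, Qars, Tars, Tars2, Hars and Kars. At an unadjusted p under 0.05, 6 of the 36 passed, against 2808 of 10421 features.

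One library, IL4 polysome replicate 3, moved these values. The 21 cytosolic genes summed to 1460.3, 1476 and 1447 CPM in IFNG polysome libraries against 1598, 1741 and 2739 CPM in IL4 polysome libraries. The 3 IFNG libraries lay close together and under all IL4 libraries, and the third IL4 library stood far above the other two. Without IL4 polysome replicate 3 the median of the 36 members was -0.36, and without both number 3 polysome libraries it was -0.26, an alternative added after the data were seen. The 15 mitochondrial genes other than Lars2 summed to 178 to 199 CPM in IFNG polysome libraries against 211 to 346 CPM in IL4 polysome libraries.

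Farsb (feature Farsb_Sgpp2, on chromosome 1, 78417958 to 78488897) had 109, 82.0 and 48.4 CPM in IFNG polysome libraries against 192, 210.0 and 197 CPM in IL4 polysome libraries. The highest IFNG library stood well below the lowest IL4 library, and the IFNG libraries were the more scattered. The means were 79.7 ± 30.2 CPM with IFNG and 199.9 ± 9.07 CPM with IL4 (SD, n = 3 each), 2.50-fold lower with IFNG (log2 -1.32, SE 0.41, edgeR adjusted p = 0.0314). In total mRNA Farsb was at 37.7, 40.4 and 72.4 CPM with IFNG against 72.6, 72.8 and 86.5 CPM with IL4. Those groups just failed to overlap and the log2 fold change was -0.62 (SE 0.40, edgeR adjusted p = 0.428).

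The Farsb call held in 7 of 12 fits that left out 1 library and was lost in 5, with the log2 fold change between -1.61 and -1.01 throughout. Leaving out replicate 2 or 3 of the IFNG polysome group raised its adjusted p to 0.0889 or 0.167. Leaving out replicate 1, 2 or 3 of the IL4 polysome group gave 0.0548, 0.0938 or 0.0755. Without both number 3 polysome libraries it was 0.26, and over all alternatives it ran between 0.00508 and 0.26. The share of the reads that belongs to Sgpp2, a sphingosine phosphate phosphatase gene, cannot be given.

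Farsa encodes the alpha subunit of the same enzyme. On polysomes it had 60.9, 29.8 and 22.5 CPM with IFNG against 48.5, 29.0 and 27.2 CPM with IL4. The groups overlapped, and the log2 fold change was 0.12 (SE 0.49, edgeR adjusted p = 0.916). The difference between the subunits was not tested.

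Vars2, the mitochondrial valine enzyme, had the next largest polysome difference among members averaging at least 10 CPM. It was at 5.55, 10.1 and 15.1 CPM with IFNG against 12.8, 15.2 and 35.6 CPM with IL4. The groups overlapped, and the log2 fold change of -1.06 (SE 0.50) did not pass (edgeR adjusted p = 0.177). Vars2 was lower with IFNG in each of the 3 same-numbered pairs, which was not tested. Dars, the aspartate enzyme, had 23.9, 24.8 and 26.6 CPM with IFNG against 39.8, 54.5 and 60.5 CPM with IL4 on polysomes. Its groups were apart, and its log2 fold change of -1.04 (SE 0.45) did not pass either (edgeR adjusted p = 0.138).

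**Figure D2:**
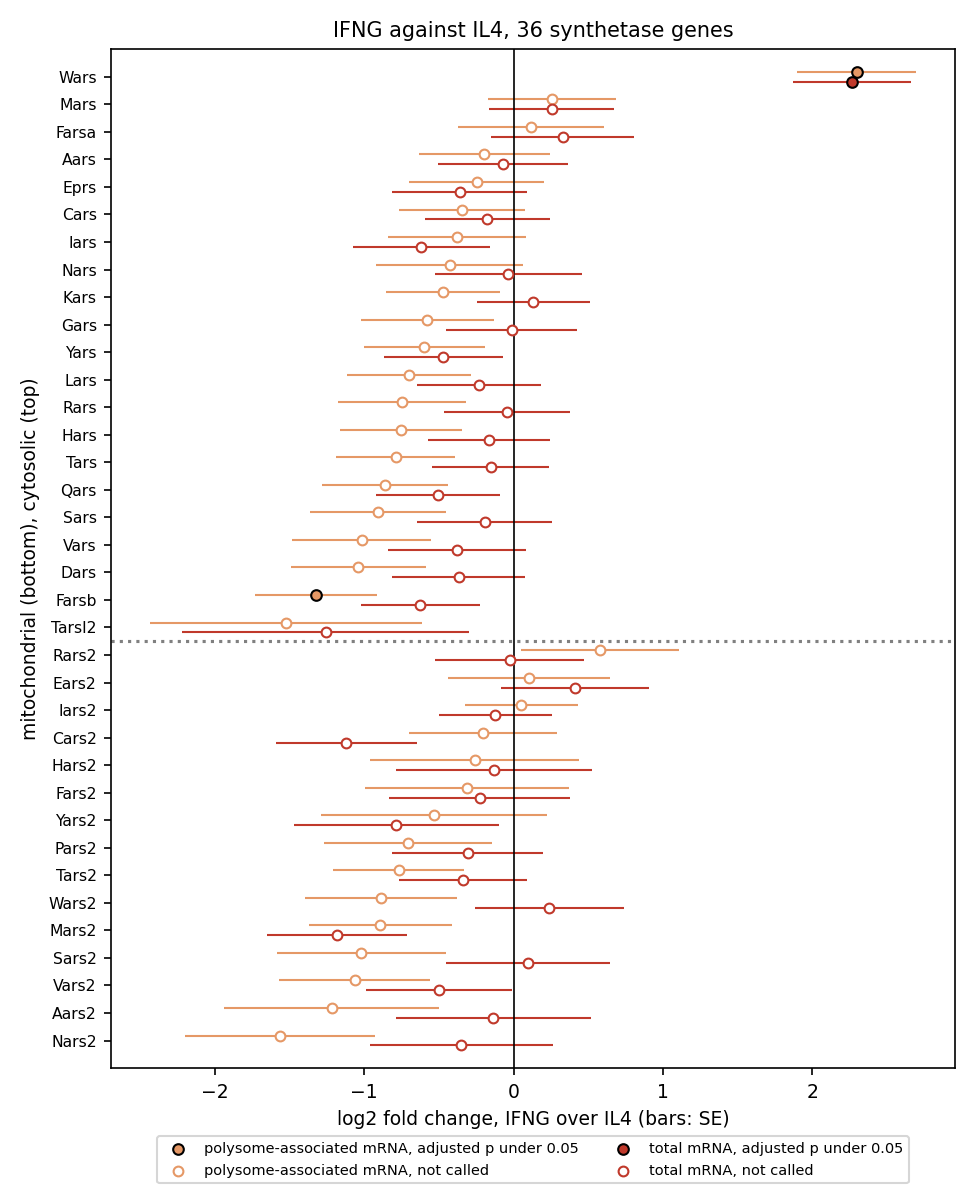
Log2 fold change of IFNG over IL4 (horizontal axis) for each of 36 synthetase genes (vertical axis, cytosolic above the dotted line), with polysome-associated mRNA in orange and total mRNA in red, filled where the edgeR adjusted p was under 0.05, and bars of 1 SE. Wars is far to the right in both fractions at 2.30 and 2.27, Farsb is the filled polysome point at -1.32, and 30 of the 36 polysome points lie left of 0.

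By catalytic class, the 2 evolutionary families into which the enzymes fall by the fold of their active site, class II had 17 of 18 polysome values below 0 and a median of -0.76, and in 7 of its 18 genes (38.9%, against 16.0% of all features) every IFNG library was under every IL4 library. Class I without Lars2 had 13 of 18 below 0, a median of -0.46 and 1 such gene, Qars (5.56%), while Wars was the 1 gene with every IFNG library above (5.56%, against 15.2% of all features). Each class held 1 call on polysomes, Farsb lower in class II and Wars higher in class I, and the difference between the classes was not tested. The cytosolic genes had a polysome median of -0.60 and the mitochondrial genes without Lars2 one of -0.71.

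No synthetase was called for polysome association, the test of whether the polysome difference departed from the total difference, and no feature of 10421 was (0 higher and 0 lower by edgeR). DESeq2 called 0 members and 1 feature lower. At an unadjusted p under 0.05 edgeR gave 0 of the 36 and 176 of all features. The median of the 36 was -0.37, against -0.10 over all features, and 27 of 36 values were negative. With single libraries left out that median ran between -0.55, without IL4 total replicate 3, and -0.06, without IFNG total replicate 1. Without both number 3 polysome libraries it was -0.03. Among members averaging at least 10 CPM the widest were Wars2 at -1.13 (SE 0.71), Sars2 at -1.12 (SE 0.79) and Cars2 at 0.91 (SE 0.68), with edgeR adjusted p = 1.00 for each. Sars2, the mitochondrial serine enzyme, had 15.3, 15.98 and 9.23 CPM in IFNG polysome libraries against 15.7, 23.4 and 44.6 CPM in IL4 polysome libraries. In total mRNA Sars2 had 38.2, 27.1 and 5.18 CPM with IFNG against 31.3, 17.8 and 16.9 CPM with IL4, and the groups overlapped in both fractions.

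Between the fractions synthetases were called in both directions, as were features at large. Polysome-associated against total mRNA, averaged over both polarizations, asks which messages made up more of the heavily translated pool than of the whole. Of the 35 members that passed the filter on low counts in each fraction, 11 rose (31.4%, against 22.6% of all features) and 5 fell (14.3%, against 25.7% of all features). The median was 0.26, against 0.04 over all features. The values over all features include features that, like Tarsl2, passed the filter through 1 fraction only. Among the 20 cytosolic genes of these 7 rose (35.0%) and 2 fell (10.0%) with a median of 0.54. Among the 15 mitochondrial genes 4 rose (26.7%) and 3 fell (20.0%), near the 22.6% and 25.7% of all features, with a median of -0.23. In 3 of all 36 members, counting Tarsl2, every polysome library was above every total library (8.33%, against 6.69% of all features). In 1 of the 36 every polysome library was below (2.78%, against 10.5%). At an unadjusted p under 0.05, 21 of the 36 passed, Tarsl2 included, against 5733 of 10421 features.

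Within the multisynthetase complex 4 of 8 synthetases rose (50%, against 22.6% of all features) and 1 fell (12.5%, against 25.7%), with a median of 0.59. The 13 cytosolic genes outside the complex, Tarsl2 included, had a close median of 0.56. Those of the complex that rose were Lars, Iars, Dars and Eprs. Lars, the cytosolic leucine enzyme on chromosome 18, had 73.7, 111 and 77.6 CPM in IFNG polysome libraries and 107, 128 and 191 CPM in IL4 polysome libraries, against 20.7, 29.3 and 46.7 CPM in IFNG total and 28.1, 33.1 and 52.1 CPM in IL4 total libraries. The lowest polysome library was above the highest total library, and the difference was 3.19-fold (log2 1.67, SE 0.30, edgeR adjusted p = 0.000154). Dars had 9.64, 9.19 and 20.8 CPM in IFNG total and 10.4, 13.0 and 27.8 CPM in IL4 total libraries beside the polysome values above. Of the total libraries only IL4 replicate 3 reached the polysome range, and it stood above every IFNG polysome library. Dars was 2.39-fold higher on polysomes (log2 1.26, SE 0.32, edgeR adjusted p = 0.00287).

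Iars, the isoleucine enzyme, had 33.7, 41.8 and 63.5 CPM in IFNG polysome and 54.5, 49.9 and 75.6 CPM in IL4 polysome libraries, against 13.4, 19.3 and 28.1 CPM in IFNG total and 18.6, 19.6 and 55.0 CPM in IL4 total libraries. IL4 total replicate 3 alone reached into the polysome range. The difference of Iars was log2 1.07 (SE 0.33, edgeR adjusted p = 0.0104), and without both number 3 polysome libraries its adjusted p was 0.0663. Eprs, which joins the glutamate and proline enzymes in 1 chain, had 76.5, 58.2 and 43.6 CPM in IFNG polysome and 66.5, 69.4 and 76.4 CPM in IL4 polysome libraries, against 16.3, 18.5 and 55.3 CPM in IFNG total and 28.6, 34.0 and 53.2 CPM in IL4 total libraries. Both number 3 total libraries overlapped the lowest polysome library. Its difference of log2 0.93 (SE 0.32, edgeR adjusted p = 0.0212) was lost without 1 of 4 total libraries, with an adjusted p of 0.0554 without IFNG replicate 1, 0.0552 without IFNG replicate 2, 0.0586 without IL4 replicate 1 and 0.0539 without IL4 replicate 2.

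The complex member that fell was Mars, the methionine enzyme, counted in 1 feature with Ddit3, the stress-induced transcription factor CHOP. Ddit3_Mars had 46.4, 40.8 and 25.1 CPM in IFNG polysome and 26.4, 25.9 and 42.4 CPM in IL4 polysome libraries, against 77.2, 39.3 and 94.7 CPM in IFNG total and 43.1, 55.5 and 78.2 CPM in IL4 total libraries. Polysome and total libraries overlapped. The log2 difference was -0.91 (SE 0.30, edgeR adjusted p = 0.0171), and without IL4 total replicate 3 it missed the threshold (edgeR adjusted p = 0.0508). Qars, Rars and Kars, the glutamine, arginine and lysine enzymes, were at log2 -0.66, 0.15 and 0.25 and did not pass.

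Outside the complex, Hars, Tars and Farsb rose. Hars, the histidine enzyme, had 98.9, 98.0 and 58.0 CPM in IFNG polysome and 102, 124 and 205 CPM in IL4 polysome libraries, against 35.96, 41.4 and 70.5 CPM in IFNG total and 49.2, 59.7 and 56.7 CPM in IL4 total libraries. IFNG polysome replicate 3 alone fell among the total libraries, and the difference was 2.12-fold (log2 1.08, SE 0.29, edgeR adjusted p = 0.00424). Tars, the threonine enzyme, had 39.8, 34.3 and 30.7 CPM in IFNG polysome and 56.7, 46.4 and 78.7 CPM in IL4 polysome libraries, against 20.0, 18.6 and 32.3 CPM in IFNG total and 23.1, 21.5 and 34.3 CPM in IL4 total libraries. The number 3 total libraries overlapped the IFNG polysome libraries, and Tars was 1.84-fold higher on polysomes (log2 0.88, SE 0.28, edgeR adjusted p = 0.013).

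The phenylalanine enzyme is built from Farsa and Farsb chains, and the feature Farsb_Sgpp2 and Farsa moved in opposite directions. Farsb was 2.03-fold higher on polysomes than in total mRNA (log2 1.02, SE 0.28, edgeR adjusted p = 0.00559), while IFNG polysome replicates 2 and 3 lay within the range of the total libraries. Farsa had 215, 157 and 57.9 CPM in IFNG total and 157, 106 and 80.6 CPM in IL4 total libraries beside the polysome values above. IFNG total replicate 3 was the 1 total library under a polysome library, and Farsa was 3.50-fold lower on polysomes (log2 -1.81, SE 0.35, edgeR adjusted p = 0.000309). Tarsl2, a second threonine enzyme gene of the cytosolic type, rested on few reads and passed the filter through polysome libraries alone, so that a difference between the fractions was built in. Its counts were 16, 2 and 6 in IFNG polysome and 25, 17 and 5 in IL4 polysome libraries, against 1, 1 and 7 in IFNG total and 3, 13 and 14 in IL4 total libraries. In CPM only IFNG polysome replicate 2 lay inside the total range, and the log2 difference, given as a description, was 2.40 (SE 0.67).

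**Figure D3:**
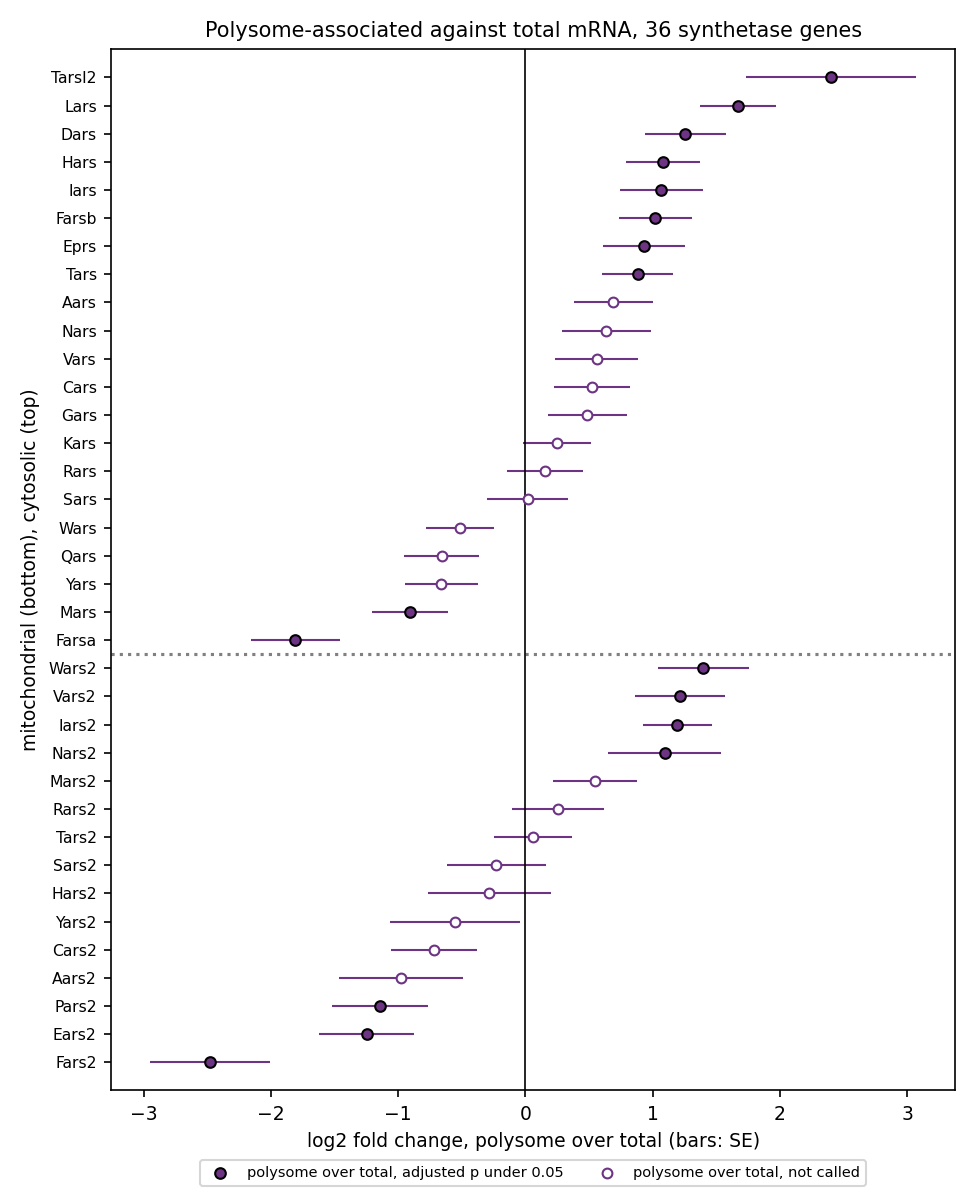
Log2 fold change of polysome-associated over total mRNA, averaged over both polarizations (horizontal axis), for 36 synthetase genes (vertical axis, cytosolic above the dotted line), filled where the edgeR adjusted p was under 0.05, and bars of 1 SE. The 12 filled points on the right include Tarsl2 at 2.40, which passed the low count filter through polysome libraries alone, and otherwise run up to Lars at 1.67, and the 5 on the left are Mars, Farsa, Pars2, Ears2 and Fars2, with Fars2 farthest at -2.48.

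Among the mitochondrial enzymes Iars2, Wars2, Vars2 and Nars2 rose. Iars2, the isoleucine enzyme (feature Iars2_Rab3gap2), had 54.7, 78.0 and 78.3 CPM in IFNG polysome and 72.1, 49.9 and 81.3 CPM in IL4 polysome libraries, against 29.3, 34.5 and 22.9 CPM in IFNG total and 26.9, 29.1 and 38.4 CPM in IL4 total libraries. No polysome library overlapped a total library, and the difference was 2.29-fold (log2 1.19, SE 0.27, edgeR adjusted p = 0.00116). Wars2, the mitochondrial tryptophan enzyme, had 9.07, 13.2 and 8.86 CPM in IFNG polysome and 9.67, 17.0 and 31.8 CPM in IL4 polysome libraries, against 4.95, 5.35 and 7.17 CPM in IFNG total and 2.68, 5.76 and 6.33 CPM in IL4 total libraries. Here too the fractions were apart (log2 1.40, SE 0.36, edgeR adjusted p = 0.00314). With IFNG against IL4, Wars2 gave log2 -0.89 on polysomes (SE 0.51, edgeR adjusted p = 0.275) and 0.24 in total mRNA (SE 0.50, edgeR adjusted p = 0.883), neither of which passed, beside the rise of the cytosolic Wars.

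Vars2 had 5.90, 5.82 and 4.06 CPM in IFNG total and 7.54, 6.56 and 8.22 CPM in IL4 total libraries, and of its polysome libraries only IFNG replicate 1 lay inside that range. The difference of Vars2 was log2 1.21 (SE 0.35, edgeR adjusted p = 0.00753), and without both number 3 polysome libraries it was 0.71 (edgeR adjusted p = 0.113). Nars2, the asparagine enzyme, had 3.96, 5.25 and 0.739 CPM in IFNG polysome and 7.63, 7.08 and 16.3 CPM in IL4 polysome libraries, against 1.65, 3.02 and 2.76 CPM in IFNG total and 2.10, 2.88 and 4.43 CPM in IL4 total libraries. IFNG polysome replicate 3 was the lowest of all 12. The log2 difference of Nars2 was 1.09 (SE 0.44, edgeR adjusted p = 0.0453). It missed the threshold without IFNG total replicate 1 (0.1), IFNG polysome replicate 1 (0.0781), IL4 total replicate 1 (0.104), IFNG polysome replicate 2 (0.131), IL4 total replicate 2 (0.0889) and IL4 polysome replicate 3 (0.138), each an adjusted p. It also missed it with no low count filter (0.0501), with Lars2 removed before scaling (0.0798) and without both number 3 polysome libraries (0.0546).

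Fars2, Ears2 and Pars2 fell. Fars2, the mitochondrial phenylalanine enzyme, acts as a single chain. It had 5.37, 2.73 and 2.22 CPM in IFNG polysome and 6.81, 6.02 and 0 CPM in IL4 polysome libraries, against 32.5, 17.6 and 12.3 CPM in IFNG total and 31.7, 24.3 and 17.1 CPM in IL4 total libraries. The count of 0 in IL4 polysome replicate 3 allows up to 1.13 CPM. All polysome libraries were below all total libraries, and Fars2 was 5.58-fold lower (log2 -2.48, SE 0.47, edgeR adjusted p = 0.000264).

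Ears2, the glutamate enzyme, had 6.52, 3.15 and 7.39 CPM in IFNG polysome and 4.63, 6.73 and 4.54 CPM in IL4 polysome libraries, against 23.5, 15.1 and 6.22 CPM in IFNG total and 11.5, 13.0 and 9.23 CPM in IL4 total libraries. IFNG total replicate 3 was the 1 total library within the polysome range (log2 -1.25, SE 0.37, edgeR adjusted p = 0.0086). Pars2, the proline enzyme, had 3.08, 2.31 and 4.06 CPM in IFNG polysome and 3.68, 3.90 and 7.94 CPM in IL4 polysome libraries, against 11.5, 6.63 and 5.44 CPM in IFNG total and 11.9, 10.6 and 6.77 CPM in IL4 total libraries. IL4 polysome replicate 3 alone reached the total range. The log2 difference of Pars2 was -1.14 (SE 0.38, edgeR adjusted p = 0.0169), and without IFNG total replicate 1 it missed the threshold (edgeR adjusted p = 0.0548).

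**Figure D4:**
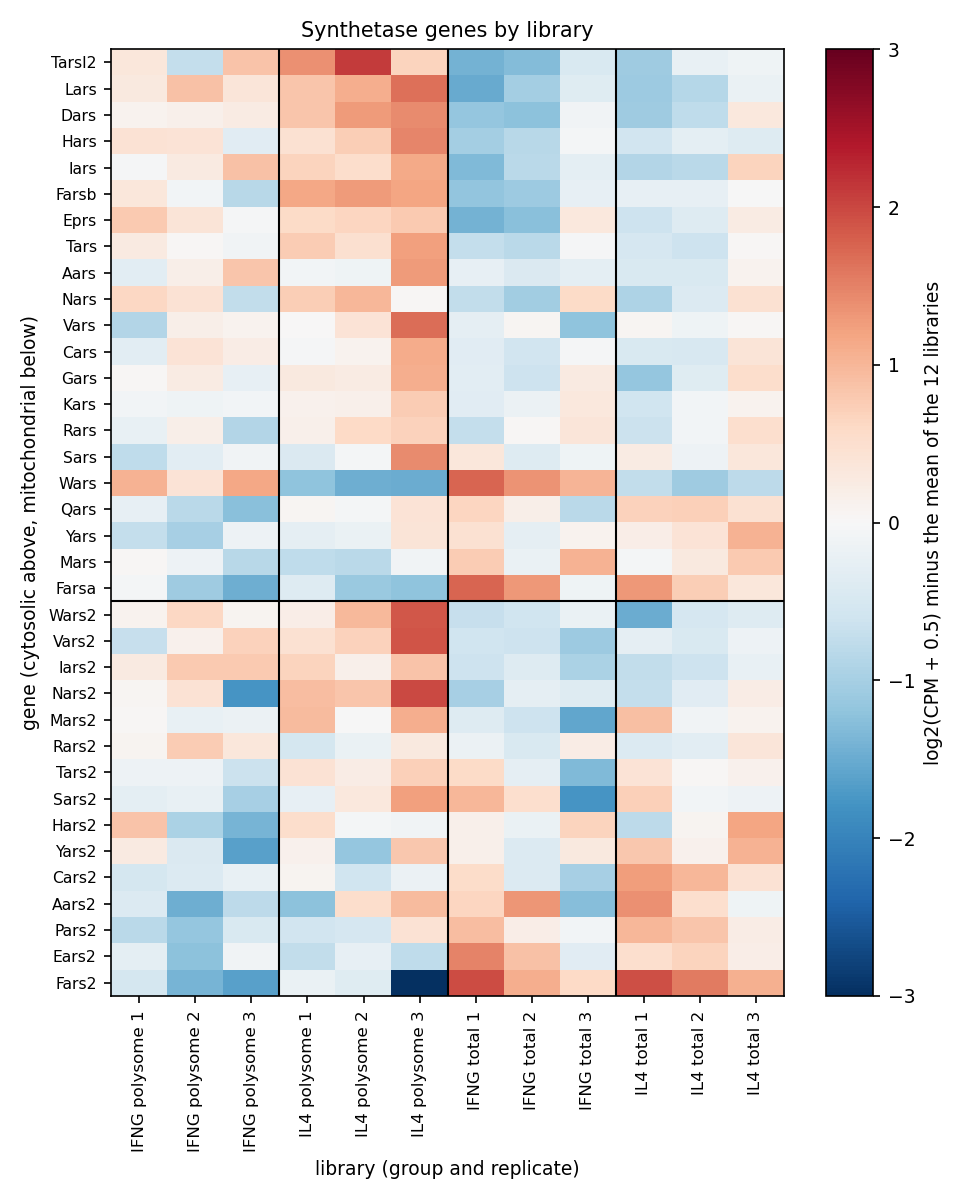
Levels of 36 synthetase genes (rows, cytosolic above the line) in the 12 libraries (columns, by group and replicate), as log2(CPM + 0.5) minus the mean of the gene over the 12 libraries, with red above and blue below that mean and colours ending at 3 on either side. The Wars row is red in all 6 IFNG libraries and blue in all 6 IL4 libraries, IL4 polysome replicate 3 holds many of the deepest red cells, and the Fars2 row is blue in the 6 polysome libraries.

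Lars2, on chromosome 9 (123366927 to 123462675), took more of the polysome than of the total libraries and scattered widely. Over the 12 libraries it averaged 75086 CPM, against 49.6 CPM for Iars2 (feature Iars2_Rab3gap2), the next highest mitochondrial member. Which RNA gave rise to the reads assigned to Lars2 was not tested, so all values of Lars2 describe counted reads. Its share was 1.78, 12.8 and 29.3% of all counts in IFNG polysome libraries and 5.15, 11.98 and 18.1% in IL4 polysome libraries. In total mRNA it took 0.341, 1.39 and 2.00% with IFNG and 1.13, 0.903 and 1.47% with IL4. The exact 95% binomial intervals of these shares were at most 0.0999 percentage points wide and cover counting error only. IFNG polysome replicate 1 was inside the range of the total libraries and the other 5 polysome libraries were above it. The other 36 synthetases together held 0.138 to 0.212% of counts in IFNG polysome, 0.215 to 0.297% in IL4 polysome, 0.120 to 0.159% in IFNG total and 0.136 to 0.241% in IL4 total libraries.

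The deepest polysome library of each polarization had the lowest Lars2 share of its group. IFNG polysome replicate 1, with 8789480 counts, had 1.78%, and IL4 polysome replicate 1, with 5546605 counts, had 5.15%. The part of depth in these shares was not tested. Polysome against total gave log2 3.44 for Lars2 (SE 0.57, edgeR adjusted p = 7.82e-05), with 2.56 to 3.71 over the alternatives. IFNG against IL4 gave log2 0.55 on polysomes (SE 0.74, edgeR adjusted p = 0.695), 0.35 in total mRNA (SE 0.74, edgeR adjusted p = 0.885) and 0.20 for polysome association (SE 1.04, edgeR adjusted p = 1.00). All 3 differences turned sign in some alternatives, and none passed.

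**Figure D5:**
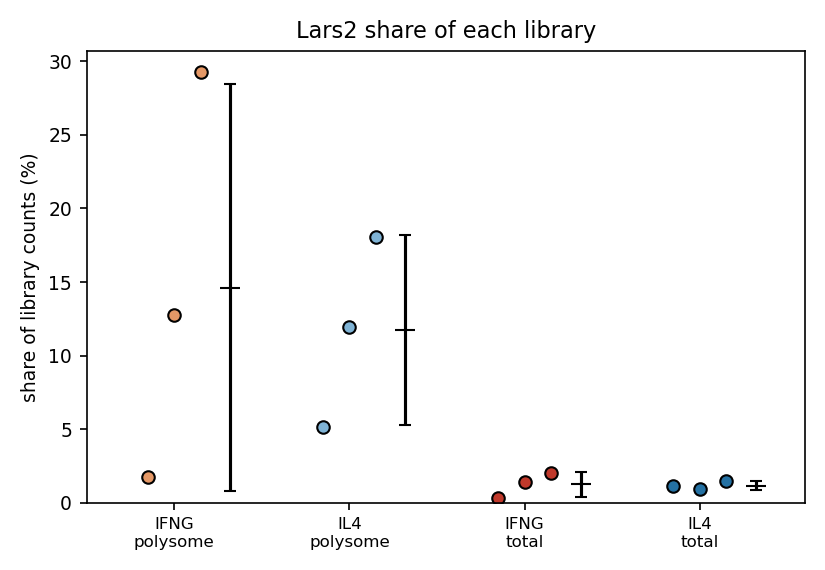
Share of all counts of a library taken by Lars2 (vertical axis, percent, from 0) in the IFNG polysome, IL4 polysome, IFNG total and IL4 total libraries (horizontal axis). Points are libraries in replicate order and bars are mean ± SD of 3; polysome libraries run between 1.78 and 29.3%, total libraries between 0.341 and 2.00%.

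Of the 13 ATF4-linked synthetases, Wars was the 1 call with IFNG against IL4 in each fraction (7.69%). Of all features 7.54% were called higher on polysomes and 7.08% in total mRNA. In each fraction 11 of the 13 values were negative, beside 30 of all 36 members on polysomes and 29 in total mRNA. The medians of the 13 were -0.43 on polysomes and -0.18 in total mRNA, against -0.06 and 0.04 over all features. The 5 genes with the promoter element shown above gave log2 -0.20 (Aars), -0.58 (Gars), -0.38 (Iars), -0.79 (Tars) and -0.60 (Yars) on polysomes, and none passed. The Atf4 message had 86.3, 62.2 and 99.0 CPM in IFNG polysome libraries against 20.4, 10.98 and 20.0 CPM in IL4 polysome libraries. These groups were far apart, and Atf4 rose on polysomes (log2 2.26, SE 0.43, edgeR adjusted p = 0.000874). In total mRNA it had 259, 184 and 329 CPM with IFNG against 120.5, 147 and 203 CPM with IL4, which overlapped. Atf4 was higher with IFNG in each of the 3 same-numbered pairs, which was not tested. The total difference was log2 0.71 (SE 0.40, edgeR adjusted p = 0.342). The difference between those results, the polysome association of Atf4, was log2 1.54 (SE 0.58, edgeR adjusted p = 1.00).

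Of 27 other genes listed for the amino acid response, 24 were tested, and Ddit3 among them is the feature shared with Mars. On polysomes 4 rose (16.7%, against 7.54% of all features) and 2 fell (8.33%, against 6.58%) with IFNG, with a median of 0.57. In total mRNA 3 rose (12.5%, against 7.08% of all features) and 2 fell (8.33%, against 3.93%), with a median of 0.59. Psat1, an enzyme of serine synthesis, rose in both (log2 2.16 on polysomes, edgeR adjusted p = 0.0108, and 1.85 in total mRNA, edgeR adjusted p = 0.0288). Trib3, a pseudokinase induced by ATF4, rose in both (log2 1.83, edgeR adjusted p = 0.0192, and 2.51, edgeR adjusted p = 0.00132). Chac1, a glutathione-degrading enzyme named after its values were seen, also rose in both (1.86 and 2.37). Phgdh, the first enzyme of serine synthesis, fell in both (log2 -2.55 on polysomes, edgeR adjusted p = 0.0159, and -2.22 in total mRNA, edgeR adjusted p = 0.0321). Shmt2, in the feature Ndufa4l2_Shmt2, fell on polysomes (-2.36, edgeR adjusted p = 0.00873), and the amino acid transporter gene Slc1a5 fell in total mRNA (-1.34, edgeR adjusted p = 0.0491).

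Between the fractions, 2 genes of that list were higher on polysomes (8.33%, against 22.6% of all features) and 11 lower (45.8%, against 25.7%), with a median of -0.77. The transporter genes Slc7a1 (log2 1.34, edgeR adjusted p = 0.00527) and Slc38a2 (1.26, edgeR adjusted p = 0.00408) rose, while Atf4 (-2.41, edgeR adjusted p = 4.56e-06) and Atf3 (-1.09, edgeR adjusted p = 0.00967) fell. The difference between this list and the synthetases was not tested.

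The 3 scaffold genes of the multisynthetase complex had no edgeR call with IFNG against IL4 (at an unadjusted p under 0.05, 1 passed on polysomes and 0 in total mRNA). Their log2 values on polysomes were -0.57 for Aimp1, -0.19 for Aimp2 (feature Aimp2_Eif2ak1) and -0.92 for Eef1e1. Aimp2 was lower on polysomes than in total mRNA (-0.68, edgeR adjusted p = 0.0425). Of 29 genes of tRNA supply and proofreading, 1 fell with IFNG on polysomes (3.45%, against 6.58% of all features) and in total mRNA (3.45%, against 3.93%). In each fraction 0 rose, against 7.54% of all features on polysomes and 7.08% in total mRNA. The gene that fell was Aarsd1, an alanyl-tRNA editing protein gene (-1.55 on polysomes, edgeR adjusted p = 0.0253, and -1.35 in total mRNA, edgeR adjusted p = 0.0491). Between the fractions 14 of the 29 fell (48.3%, against 25.7% of all features), among them the tRNA ligase gene Rtcb (-0.74, edgeR adjusted p = 0.039), and 1 rose (3.45%, against 22.6%), with a median of -0.74. Of 17 genes of mitochondrial tRNA charging and maturation none was called by edgeR with IFNG against IL4, and 0 passed at an unadjusted p under 0.05 in either fraction. On polysomes against total, 3 of them rose (17.6%, against 22.6% of all features), among them the elongation factor gene Tufm (0.84, edgeR adjusted p = 0.0372), and 6 fell (35.3%, against 25.7%), among them Hsd17b10 (-2.19, edgeR adjusted p = 9.54e-05), with a median of -0.83.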

How the data were processed

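Each deposited file holds whole-number read counts per gene feature, raw per the file headers and the values, and a log2 column labelled as TMM normalized by the authors, per the file headers, which was not used. Per the submitters' processing notes, HISAT2, HISAT, limma and the build mm10 (GRCm38) were used, with no versions. No source used here gives the counter, strand setting or annotation, so overlapping genes such as Hars and Hars2 and antisense partners are uncertain. Positions come from RefSeq. Libraries were made with SmartSeq2, per the labels.

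Counts of all 12 libraries were fitted in edgeR 4.0.16 (R 4.3.3) with filterByExpr (10421 of 19549 features kept), TMM, 4 groups, no block and robust quasi-likelihood dispersion. Adjusted p-values are Benjamini-Hochberg values over all features, with a threshold of 0.05, and SE is the absolute log2 fold change over the root of F. The procedure was tested on simulated data. For IFNG against IL4 on polysomes it called 0% of 2-fold changes, 48% of 4-fold, 87.5% of 8-fold and 93.9% of 16-fold changes. A change of about 2-fold that was not called is thus not shown to be absent. Alternatives used limma 3.58.1 tools and DESeq2 1.42.0. The members and lists were chosen with earlier results of these data known. Named were Wars, Lars2, every called member, the 3 widest per comparison among members averaging at least 10 CPM, and up to 4 called genes a list, by level.

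Whether replicates were separate animals or cultures is not in the labels, and the spread behind the p-values may therefore be technical. No pair of replicates agreed within counting noise. Same-numbered IFNG and IL4 libraries deviated together (correlation 0.15 to 0.75 in total, 0.16 to 0.37 in polysome libraries). Those of different number gave -0.71 to 0.41 in total and -0.39 to 0.24 in polysome libraries. The ranges overlap, so whether the numbers pair the libraries is not settled. Polysome and total libraries of 1 number did not deviate together in every pair (-0.08 to 0.44 with IFNG, 0.01 to 0.41 with IL4). The direction within same-numbered pairs was counted for Vars2, Cars2 and Atf4 alone. Floors are 3 counts. One marker list and 1 promoter stretch are not reported here.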

Additional observations from a re-analysis of the deposited data

How the results depend on the processing

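Wars kept its call in every alternative run, with log2 2.16 to 2.50 on polysomes and 2.01 to 2.39 in total mRNA. Over the alternatives the named genes other than Lars2 gave 582 values on the same side of the threshold, 23 no longer past it, 1 newly past it and 7 of opposite sign, all 7 the association of Wars. Members lower with IFNG on polysomes numbered 1, but 0 with joined features removed and 0 without both number 3 polysome libraries, since that call is Farsb, and 0 to 1 when single libraries were left out. In total mRNA the number was 0 to 1 when single libraries were left out. Members lower on polysomes than in total mRNA numbered 5, but 3 with a mean of at least 10 CPM required, which removes Ears2 and Pars2, 8 with Lars2 removed before scaling, and 4 to 8 when single libraries were left out, with 8 without IFNG total replicate 3. The cause was not tested for either count of 8. Removing Lars2 before scaling moved the median of all features to -0.09 between the fractions and to 0.06 for IFNG against IL4 on polysomes, and the medians of the 36 members to 0.23 (0.37 otherwise, Tarsl2 included) and -0.52 (-0.65 otherwise). Upper quartile scaling moved the median of all features to 0.15 between the fractions and to -0.09 for IFNG against IL4 in total mRNA.

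The replicate block, as paired analysis, changed no member call with IFNG against IL4 and added Yars between the fractions. With the block, Lars2 in total mRNA reversed to -0.18, and the calls over all features were 850 higher and 584 lower in total mRNA and 911 and 896 on polysomes. Left-out libraries put Lars2 at -0.0571 to 0.71 in total mRNA, -0.52 to 1.15 on polysomes and -0.81 to 0.80 for association, with -0.22 without both number 3 polysome libraries. The association of Wars was -0.0522 to 0.38 and -0.057 in those settings. The cause was not tested. Limiting the fit to the libraries compared was not run for association or for polysome against total, which use all 12. Members under 10 CPM, 8 of 36, are limited by depth.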
